A study of Mus musculus with 8 samples.

Results

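The cadherin and protocadherin genes were followed in mouse right hippocampus. A member was any probe with values whose single annotation symbol starts with Cdh or Pcdh, and each gene was read from the probe with the highest mean over the 8 arrays. The annotation gave 57 such genes on 84 probes, of which 43 genes on 57 probes had values, out of 11023 genes with values on the arrays. All 43 passed the filter on dim probes, which asked for a value above 100 on at least 2 arrays. They comprised 14 classical cadherins, 17 clustered protocadherins, 7 non-clustered protocadherins and 5 other cadherins. A further 14 genes were empty on all arrays, namely Cdh7, Cdh16, Cdh18, Cdh26, Pcdh1, Pcdh17, Pcdh18 and 7 genes of the beta cluster.

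The study asked how loss of Cav3.2, a T-type calcium channel, and fear training alter hippocampal gene expression. All mice were 6 to 8 week old males on a C57BL/6 background. The 4 groups were trained knockout (KTR), naive knockout (KNR), trained wild-type (WTR) and naive wild-type (WNR), with the right hippocampi of 3 mice pooled per group and 2 arrays each. Knockout mice were homozygous for a knockout allele of Cacna1h, the gene of the Cav3.2 pore subunit, present in every tissue. Trained mice had received trace fear conditioning (TFC), in which a tone and a later foot shock are separated by a gap, and were killed right after a contextual memory test on the following day. Before training they had been placed in the conditioning chamber daily to adapt. Chamber exposure, conditioning and test therefore cannot be told apart in these groups. Naive mice of both genotypes were untrained. The wild-type mice are described both as purchased C57BL/6J animals and as littermates.

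Cadherins are membrane proteins that join cells through calcium-dependent binding of their extracellular repeats. Classical cadherins hold synapses and other junctions together and pass force to actin through catenins bound to their tails. Clustered protocadherins are made from neighbouring alpha, beta and gamma gene arrays, and each neuron uses its own choice of isoforms, which marks the cell and lets its dendrites recognise themselves. Non-clustered protocadherins act in axon growth, cell sorting and synapse remodelling.

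Values were one-colour intensities that had been quantile normalized, so the median intensity lay between 484.7 and 485.4 on every array. The precision is limited by the number of arrays. Whether the duplicate arrays came from separate pools of tissue is not stated, so each p-value rests on array-to-array spread that could be technical. A bulk sample cannot tell fewer cells of a type from less RNA per cell. Cacna1h was read first (chromosome 17). Its probe read 1036 and 1439.5 on the KTR arrays, 1551 and 1489 on KNR, 2084 and 2339.9 on WTR and 2575 and 2385 on WNR. Both knockout groups lay below both wild-type groups, by 0.71 on the log2 scale in naive mice (KNR minus WNR -0.71, limma adjusted p = 0.049) and by a KTR minus WTR difference of -0.85 in trained mice (adjusted p = 0.053). Where this probe lies relative to the deleted part is not known. KNR replicate 1 and KTR replicate 2 stood farthest apart in earlier results of these data. Without both, no probe on the arrays passed the test in any comparison, and the counts below are read with that limit.

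Promoter sequence from RefSeq (GRCm38.p6), 250 bases before to 50 bases after the start, was matched by symbol to 17 of the 43 genes on 18 windows. These were 8 classical, 6 non-clustered and 3 other members, and no clustered one. The 18 windows held a median of 12.5 CpG dinucleotides, against 7 over all 32851 windows, and the range within the members was wide, from 2 to 38. The cyclic AMP response motif TGACGTCA, which reads the same on both strands, was in 0 of the 18 windows and in 1.79% of all windows. Its absence says only that these letters are not in the windows. The windows of 3 genes are printed because their genes carry the results below on genes with several probes, and CpG dinucleotides are in capitals. Pcdh20 (chr14:88471347-88471646, minus strand) held 4, Cdh10 (chr15:18820079-18820378, plus strand) held 2, and Cdh8 (chr8:99416422-99416721, minus strand) held 21.
Pcdh20: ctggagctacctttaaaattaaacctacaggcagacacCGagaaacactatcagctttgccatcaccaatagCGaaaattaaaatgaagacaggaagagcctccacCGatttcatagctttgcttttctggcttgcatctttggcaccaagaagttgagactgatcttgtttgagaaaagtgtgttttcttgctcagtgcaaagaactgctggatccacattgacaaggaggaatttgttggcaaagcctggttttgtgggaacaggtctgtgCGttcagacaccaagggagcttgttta
Cdh10: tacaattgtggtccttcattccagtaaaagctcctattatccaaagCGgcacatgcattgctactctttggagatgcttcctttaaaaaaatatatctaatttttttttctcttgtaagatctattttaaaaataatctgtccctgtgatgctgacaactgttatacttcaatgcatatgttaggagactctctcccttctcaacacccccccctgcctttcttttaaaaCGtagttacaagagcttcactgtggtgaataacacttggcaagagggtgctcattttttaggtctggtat
Cdh8: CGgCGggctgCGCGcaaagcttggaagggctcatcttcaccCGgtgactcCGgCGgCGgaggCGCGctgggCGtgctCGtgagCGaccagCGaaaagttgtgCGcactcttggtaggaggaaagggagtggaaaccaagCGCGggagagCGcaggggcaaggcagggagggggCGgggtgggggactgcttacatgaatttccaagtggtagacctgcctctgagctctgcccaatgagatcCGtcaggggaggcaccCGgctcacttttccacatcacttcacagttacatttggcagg
The windows of Pcdh20 and Cdh10 are poor in CpG and that of Cdh8 is rich in it, so the genes followed below do not share this feature.

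A probe was called when its limma adjusted p, from group means fitted to the 8 arrays together and with Benjamini-Hochberg adjustment over 16204 probes, was under 0.05. Few members were called. KNR against WNR called 2 of 43 members (4.65%), both lower in KNR, where 8.02% of all probes were called and 3.33% were called lower. KTR against WTR called 1 member (2.33%), higher in KTR, where 2% of all probes were called and 0.741% were called higher. WTR against WNR called 1 member (2.33%), lower in WTR, where 6.25% of all probes were called and 2.99% were called lower. KTR against KNR called 4 members (9.30%), all higher in KTR, where 15.9% of all probes were called and 6.6% were called higher. With both directions counted, the members' shares lay below or near those of all probes, and no test of the members against all probes was run. A test of any difference among the 4 groups called 5 members (11.6%), where 20.4% of all probes were called.

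No classical cadherin was called in any of the 4 comparisons at the probe chosen for it. An unadjusted limma p under 0.05 was reached by 4 of the 14 in KNR against WNR and by 4 in KTR against WTR. It was reached by 2 in WTR against WNR and by 4 in KTR against KNR. Of all 16204 probes, 4704, 3711, 4316 and 5930 reached it in the same order. The 6 members called in 1 comparison or more were 3 clustered protocadherins (Pcdhb3, Pcdhga2, Pcdhgc5), the non-clustered Pcdh20 and the other cadherins Cdh13 and Cdh17. When limma was fitted to the 4 arrays of each comparison alone, 0 members were called in each. Over all probes that fit called 0% in 3 comparisons and 0.00634% (1 probe) in KTR against WTR. Significance analysis of microarrays (SAM), at a q under 0.01 and over 2-fold, called 1 member, Cdh17, in KTR against KNR, where it called 1.66% of all probes. Leaving out single arrays from the 8-array fit gave 0 to 1 calls in KNR against WNR, 0 in KTR against WTR and in WTR against WNR, and 0 to 3 in KTR against KNR. In KTR against KNR it was KNR replicate 1 and KTR replicate 2 whose removal lost every member call. The calls over all probes fell steeply on the same removals.

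**Figure D1:**
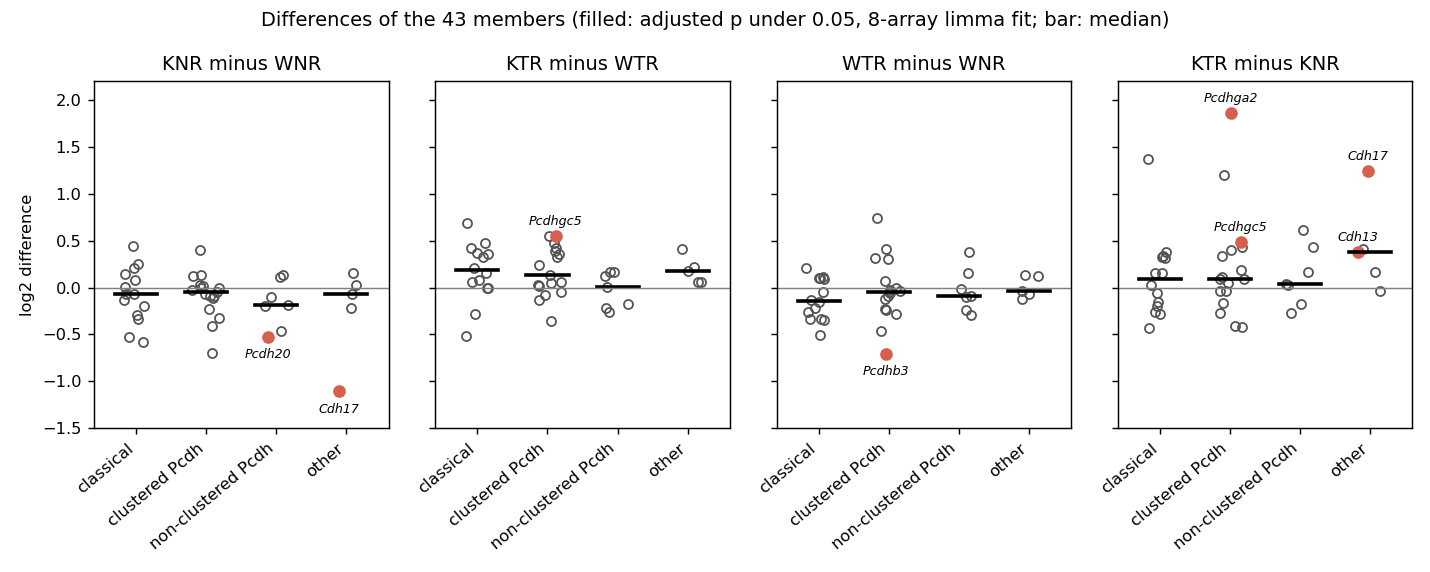
Log2 difference of each of the 43 members in the 4 comparisons, by kind of cadherin. Each circle is a gene, filled where the adjusted p was under 0.05, and the bar is the median of the kind; the medians of the classical cadherins lie between -0.14 and 0.18.

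Each kind of cadherin was also described by its median. In KTR against WTR the median log2 difference was 0.18 for classical cadherins, 0.13 for clustered and 0.01 for non-clustered protocadherins, beside 0.01 for all probes. In that comparison 32 members lay above 0 and 11 below (8533 and 7640 of all probes), and 22 of the 43 did not overlap between groups, while 55.1% of all probes did not overlap. KNR against WNR gave -0.07 for classical, -0.05 for clustered and -0.19 for non-clustered members, beside 0 for all probes, with 15 members above 0 and 27 below (8080 and 8112 of all probes), and 20 members did not overlap (58.4% of all probes). In WTR against WNR the medians were -0.14, -0.04 and -0.09 in the same order, with 14 members above 0 and 29 below (7990 and 8198 of all probes), and 21 members did not overlap (56.5% of all probes). KTR against KNR gave medians of 0.09, 0.09 and 0.04, with 28 members above 0 and 15 below (7917 and 8279 of all probes) and 27 not overlapping (67.5% of all probes). The 4 comparisons share arrays in pairs, so these values are not separate evidence. The group with the highest mean was KTR for 22 members, KNR for 7, WTR for 2 and WNR for 12. The same count over all probes was not made, so these numbers are not read as a trait of the members.

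Cdh17 was the member with the largest difference in naive knockout mice. It encodes a cadherin with a short tail that does not bind catenins and is best known from intestine and liver (chromosome 4). Its probe read 389.9 and 407 on the KTR arrays, 152 and 187 on KNR, 301 and 416 on WTR and 394 and 333 on WNR. Both KNR arrays lay below the 6 others, which overlapped each other. The level averaged 169 ± 24.9 in KNR and 363 ± 43.0 in WNR (SD, n = 2 each), a KNR minus WNR log2 difference of -1.11 (SE 0.19, limma adjusted p = 0.027). KTR was 2.37-fold higher than KNR (log2 difference 1.24, SE 0.19, adjusted p = 0.020). The training difference was 1.28 larger on the log2 scale in knockout than in wild-type mice (limma interaction, adjusted p = 0.044), the only member so called of 43 (2.33%), where 5.18% of all probes were called. Both calls and the interaction use the same 2 KNR arrays.

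Pcdh20 was the other member lower in naive knockout mice. It encodes a non-clustered protocadherin of the nervous system (chromosome 14). Its chosen probe read 4696 and 4175 on the KTR arrays, 3946 and 3941 on KNR, 5224 and 5428 on WTR and 5340.1 and 6033 on WNR. Every knockout array lay below every wild-type array. The KNR minus WNR log2 difference was -0.53 (SE 0.11, adjusted p = 0.039), and the KTR minus WTR difference was -0.27 and did not pass (adjusted p = 0.21). The second Pcdh20 probe read 1329.9 and 1266 on the KTR arrays, 909 and 1060.4 on KNR, 1199.8 and 1386 on WTR and 1514 and 1344 on WNR. It had nearly the same KNR minus WNR difference, -0.54, at an adjusted p of 0.051, but its KTR minus WTR difference was 0.01, so the order of genotypes in trained mice rested on 1 of the 2 probes.

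Cdh13, a cadherin anchored to the membrane by a lipid (chromosome 8), was highest in trained knockout mice. Its chosen probe read 2454 and 2417 on the KTR arrays, 1799 and 1957 on KNR, 1758 and 1917 on WTR and 1682 and 1678 on WNR. Both KTR arrays lay above the 6 others. The KTR minus KNR log2 difference was 0.38 (SE 0.10, adjusted p = 0.047), and KTR minus WTR was 0.41 (adjusted p = 0.080). The second Cdh13 probe read 1186 and 1027 on the KTR arrays, 785 and 816 on KNR, 925 and 977 on WTR and 720.2 and 635 on WNR. It passed in the same direction for KTR against KNR (log2 difference 0.46, adjusted p = 0.043), and its WTR minus WNR difference was 0.49 (adjusted p = 0.057). Cdh13 was thus the 1 member gene with every probe called in the same comparison and direction among the 8 genes with several probes. The call of its second probe was lost whichever array was left out (adjusted p 0.055 to 0.21).

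**Figure D2:**
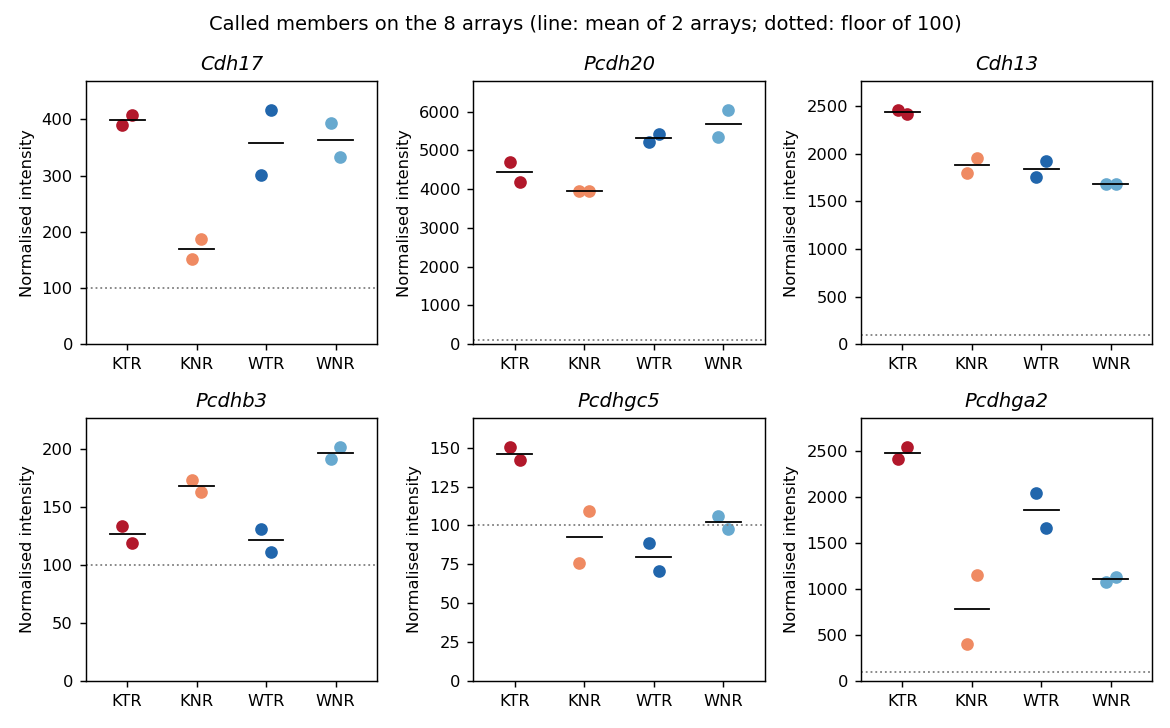
Normalised intensity of the 6 called members on each array, with groups from left to right KTR, KNR, WTR and WNR. Points are arrays, lines are means of 2 arrays and the dotted line is the floor of 100; Cdh17 is lowest in KNR (152 and 187), and both WTR arrays of Pcdhgc5 lie under the floor.

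Among the clustered protocadherins, Pcdhga2 had the largest difference of any member. It is an isoform of the gamma cluster, and all clustered members lie on chromosome 18. Its probe read 2409 and 2539 on the KTR arrays, 405 and 1151 on KNR, 2044 and 1659.7 on WTR and 1076 and 1131 on WNR. The 2 KNR arrays differed 2.84-fold, the widest gap between the arrays of a group among the 43 members after the floor of 100, and KNR replicate 1 was the lowest of all arrays. The KTR minus KNR log2 difference was 1.86 (SE 0.42, adjusted p = 0.034), and without KNR replicate 1 it was 1.10 (adjusted p = 0.11). In wild-type mice the trained arrays were also above the naive ones, by a WTR minus WNR log2 difference of 0.74 that did not pass (adjusted p = 0.31).

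Pcdhgc5, a C-type isoform of the gamma cluster, was dim throughout. Its probe read 150.5 and 142 on the KTR arrays, 75.7 and 109 on KNR, 88.6 and 70.9 on WTR and 106 and 98.0 on WNR. The KTR arrays were the highest, and 4 of the 6 others lay below the floor of 100. With WTR at the floor, KTR was at least 1.46-fold higher than WTR (log2 difference 0.55, adjusted p = 0.049), and with 1 of 2 KNR arrays at the floor it was 0.48 higher than KNR on the log2 scale (adjusted p = 0.029). Pcdhb3, of the beta cluster, read 134 and 119 on the KTR arrays, 173 and 163 on KNR, 131 and 111 on WTR and 192 and 202 on WNR. Both trained groups lay below both naive groups. The WTR minus WNR log2 difference was -0.70 (SE 0.12, adjusted p = 0.032), and KTR minus KNR was -0.41 (adjusted p = 0.059).

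The other clustered protocadherins did not pass in any comparison at their chosen probes. Pcdhb16 read 276 and 221 on the KTR arrays, 228 and 228 on KNR, 171 and 167 on WTR and 211 and 255 on WNR. Its WTR arrays were the lowest, with a log2 difference of 0.55 for KTR minus WTR (adjusted p = 0.088) and -0.46 for WTR minus WNR (adjusted p = 0.099). Pcdhb13 read 489 and 703 on the KTR arrays, 197 and 331 on KNR, 510.5 and 347 on WTR and 429 and 268 on WNR. Like Pcdhga2 it was lowest on KNR replicate 1, and its KTR minus KNR difference of 1.20 had an adjusted p of 0.058. Pcdhb17 read 1012 and 802 on the KTR arrays, 715 and 653 on KNR, 674 and 733 on WTR and 864 and 843 on WNR, a pattern with KNR and WTR low and a KTR minus KNR difference of 0.40 (adjusted p = 0.083). Over the 17 clustered members the log2 differences ran between -0.69 and 0.39 in KNR against WNR and between -0.42 and 1.86 in KTR against KNR.

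The classical cadherins had differences in both directions, and none passed the test at its chosen probe. Cdh2, the N-cadherin of synapses, read 646 and 693 on the KTR arrays, 959 and 846 on KNR, 856 and 1070.5 on WTR and 862 and 932 on WNR at its chosen probe. Both KTR arrays lay below all others, with a KTR minus WTR difference of -0.52 (adjusted p = 0.093) and a KTR minus KNR difference of -0.43 (adjusted p = 0.074). Its other 2 probes had KTR minus WTR differences of -0.34 and -0.27. Cdh3, the P-cadherin of epithelia, read 402 and 421 on the KTR arrays, 86.8 and 254 on KNR, 265 and 247 on WTR and 359 and 157 on WNR. Its KNR arrays differed at least 2.54-fold, since the lower lay under the floor, and the KTR minus KNR difference of 1.37 had an adjusted p of 0.093. Cdh5, the cadherin of endothelial junctions, read 182 and 182 on the KTR arrays, 231 and 211 on KNR, 163 and 186 on WTR and 180.3 and 147 on WNR, and its KNR minus WNR difference of 0.44 had an adjusted p of 0.081.

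Type II cadherins are expressed in distinct sets of neurons, and they had no common order of groups. Of 8 such members at their chosen probes, the highest mean was in KTR for 3 (Cdh8, Cdh11 and Cdh24), in KNR for 1 (Cdh22) and in WNR for 4 (Cdh6, Cdh9, Cdh10 and Cdh20). Cdh5, a type II cadherin of endothelial junctions, was not in this tally, and its mean was highest in KNR. Cdh9, a cadherin of dentate and CA3 neurons, read 549.7 and 555 on the KTR arrays, 509 and 482 on KNR, 481 and 569.6 on WTR and 620.5 and 631 on WNR. Both WNR arrays lay above the rest, with a KNR minus WNR difference of -0.34 (adjusted p = 0.10). Cdh6 read 174 and 177 on the KTR arrays, 198 and 168 on KNR, 174 and 179 on WTR and 221 and 225 on WNR. Its WNR arrays were again the highest, and its WTR minus WNR difference was -0.34 (adjusted p = 0.11). None of these passed the test.

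The non-clustered protocadherins other than Pcdh20 were not called at their chosen probes. Pcdh19, an X-linked gene whose human counterpart is an epilepsy gene, read 1772 and 1701 on the KTR arrays, 2070.5 and 2117 on KNR, 2001 and 2039 on WTR and 2289.6 and 2491 on WNR. WNR was highest and KTR lowest without overlap, with log2 differences of -0.19 for KNR minus WNR (adjusted p = 0.24) and -0.27 for KTR minus KNR (adjusted p = 0.093). Pcdh7 read 1268 and 1325 on the KTR arrays, 891 and 1040.5 on KNR, 1266 and 1059 on WTR and 847 and 938 on WNR. Both trained groups lay above both naive groups, by 0.43 in KTR minus KNR (adjusted p = 0.068) and 0.38 in WTR minus WNR (adjusted p = 0.13). Pcdh8, an activity-induced protocadherin that removes N-cadherin from synapses in rat neurons, read 1269 and 1059 on the KTR arrays, 1317 and 1300.4 on KNR, 1282 and 1336 on WTR and 1321 and 1491 on WNR. Its KTR minus KNR difference was -0.17 (adjusted p = 0.33) and its WTR minus WNR difference -0.10 (adjusted p = 0.66).

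**Figure D3:**
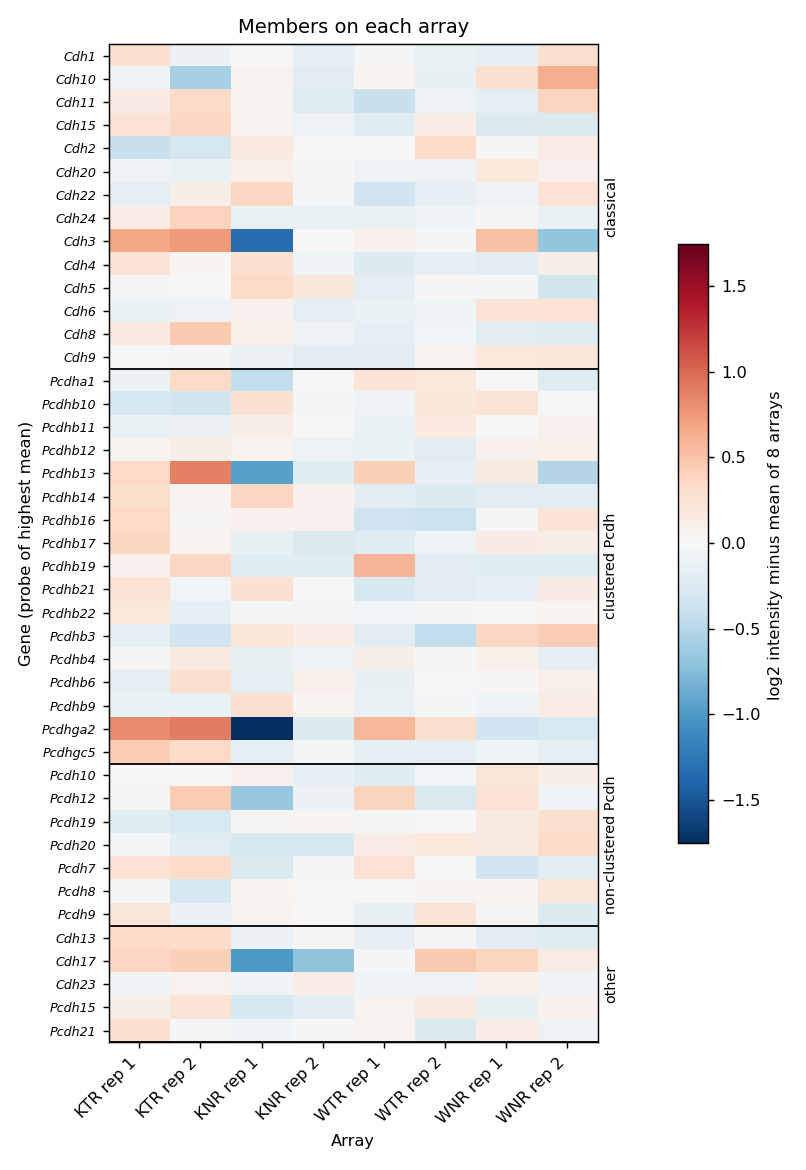
Log2 intensity of the 43 members on each array minus the mean of the gene over the 8 arrays, with genes down the page by kind of cadherin and arrays from left to right KTR, KNR, WTR and WNR. Most cells are pale; the strongest ones are Pcdhga2, Cdh3, Pcdhb13 and Cdh17 on KNR replicate 1.

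Among the genes with several probes, the probes of 1 gene often disagreed. Cdh10, a type II cadherin, had 3 probes. The chosen one read 448 and 322 on the KTR arrays, 501 and 416 on KNR, 489.7 and 436 on WTR and 581 and 745 on WNR, with a KNR minus WNR difference of -0.53 (adjusted p = 0.14) and a WTR minus WNR difference of -0.51 (adjusted p = 0.16). The second read 154 and 154 on the KTR arrays, 351 and 310.3 on KNR, 207 and 271 on WTR and 167 and 161 on WNR. On that probe KNR was 2.01-fold higher than WNR (adjusted p = 0.022) and the KTR minus KNR log2 difference was -1.10 (adjusted p = 0.016). The third read 182 and 155 on the KTR arrays, 190.0 and 167 on KNR, 110.2 and 113 on WTR and 176 and 234 on WNR, and passed only for WTR against WNR (-0.86, adjusted p = 0.034). The naive genotype difference of Cdh10 therefore had opposite signs on 2 probes, and no direction can be given for the gene.

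Cdh8 showed the same split between 2 probes. The chosen one read 788 and 955 on the KTR arrays, 746 and 654 on KNR, 622 and 678 on WTR and 609 and 599.9 on WNR, with a KTR minus KNR difference of 0.31 (adjusted p = 0.13). The dimmer one read 166 and 121 on the KTR arrays, 349 and 260.4 on KNR, 201 and 219.6 on WTR and 226 and 234 on WNR, with a KTR minus KNR difference of -1.09 (adjusted p = 0.023). A dimmer probe of Pcdh9 gave 164 and 160.0 in KTR and 275 and 242 in KNR (-0.67, adjusted p = 0.040), while the brighter 2 probes of that gene had KTR minus KNR differences of 0.04 and 0.03. The symbol Pcdha1 was carried by 5 probes, and isoforms of the alpha cluster share exons. One of them passed in KTR against KNR (-0.90, adjusted p = 0.033), with 258 and 167 in KTR and 409.6 and 365 in KNR, and the chosen one had a difference of 0.34 (adjusted p = 0.26). The probe sequences were not used here, so which transcripts each probe reads was not tested. The 8 calls on probes that were not the chosen ones, the Cdh10 interaction among them, were all lost without KNR replicate 1 and KTR replicate 2, and none of them held under the removal of every single array.

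**Figure D4:**
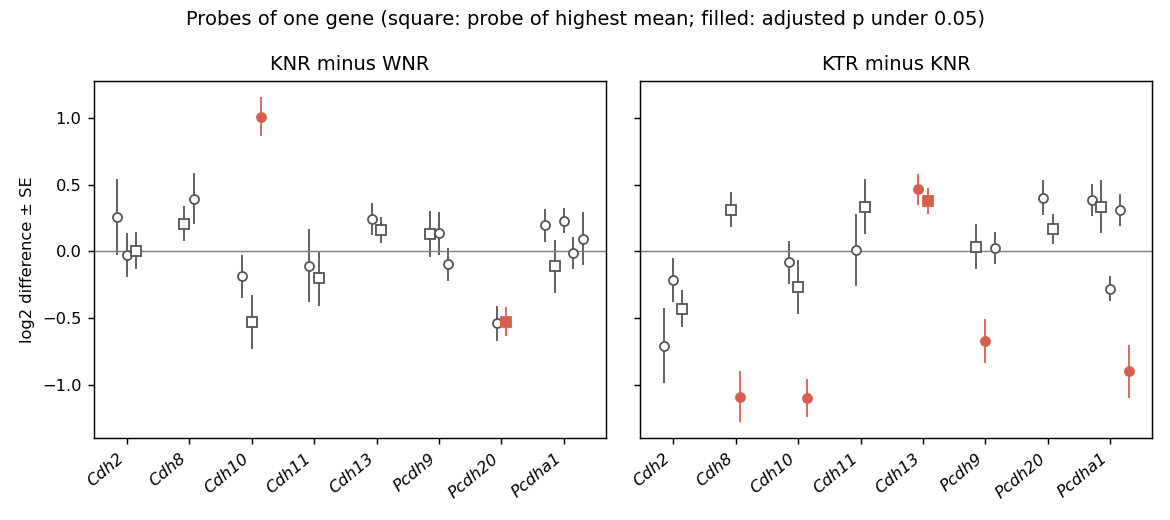
Log2 difference with its SE for every probe of the 8 member genes with several probes, in KNR minus WNR and KTR minus KNR. Squares are the probes of highest mean and filled symbols have an adjusted p under 0.05; the probes of Cdh13 and Pcdh20 lie together, and those of Cdh8 and Cdh10 lie on both sides of 0 in one of the panels.

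Partners of the cadherins were read from lists chosen with earlier results known. Of 13 catenins and adaptors tested, KTR against KNR called 1 higher and 3 lower, where 15.9% of all probes were called. Jup, plakoglobin, gave 7642 and 9282 in KTR and 1984 and 3903 in KNR (log2 difference 1.60, adjusted p = 0.027). Vcl, vinculin, gave 258 and 178 in KTR and 523 and 442 in KNR (-1.16, adjusted p = 0.035). Ctnna1, which links cadherins to actin, read 861 and 788 on the KTR arrays, 1585 and 1513 on KNR, 911 and 996 on WTR and 1585 and 1962 on WNR. Both trained groups lay below both naive groups, with log2 differences of -0.91 in KTR minus KNR (adjusted p = 0.019) and -0.89 in WTR minus WNR (adjusted p = 0.028). The list median in KTR against KNR was -0.37, beside -0.01 for all probes. Afdn, an adaptor that binds nectins and actin, gave 7038 and 6917 in KNR and 3762 and 4501 in WNR. It was called higher in KNR (KNR minus WNR 0.76, adjusted p = 0.024) and in WTR (WTR minus WNR 0.68, adjusted p = 0.032).

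Of 11 other cadherin superfamily genes, KTR against KNR called the desmosomal Dsg1b higher (1.32, adjusted p = 0.028) and the giant cadherin Fat1 lower (-0.45, adjusted p = 0.034). Of 19 regulators and effectors of protocadherins, KTR against KNR called 1 higher and 4 lower, beside the same 15.9% of all probes. The 1 called higher was Ctcf (0.38, adjusted p = 0.043). Smc3, a subunit of the cohesin ring that loops protocadherin promoters to their enhancers, gave 331 and 367 in KTR and 747 and 978 in KNR (-1.29, adjusted p = 0.016). Cyfip1, of the WAVE complex that some protocadherin tails bind, gave 270.3 and 204 in KTR and 598 and 511 in KNR (-1.23, adjusted p = 0.023). Abi2, of the same complex, had a KTR minus KNR difference of -0.68 (adjusted p = 0.033). Ptk2b, a kinase held in check by clustered protocadherins, was the 1 gene of this list called in KNR against WNR, with 1387 and 1265 in KNR and 837 and 847 in WNR (0.65, adjusted p = 0.024).

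Markers of neighbouring tissue were read beside these results. The choroid plexus list, 8 genes tested, had array sums of 23291 to 25524 (KTR), 21719.6 to 22112 (KNR), 29369 to 36409 (WTR) and 18189 to 18883 (WNR). Ttr made up most of each sum. It read 20596 and 22954 on the KTR arrays, 19518 and 20040 on KNR, 26361 and 33147 on WTR and 16383 and 15543 on WNR. In KTR against KNR the choroid plexus list had 3 genes called higher (Kcne2, Folr1 and Kl) and 1 lower (Enpp2), where 15.9% of all probes were called. It had 1 gene lower in KNR against WNR (8.02% of all probes) and 1 lower in KTR against WTR (2%). In WTR against WNR 3 were higher, where 6.25% of all probes were called. The meningeal fibroblast list, 10 genes tested, had array sums of 17979 to 18150.4 (KTR), 18556 to 19739 (KNR), 18593 to 19657 (WTR) and 13949.8 to 14744 (WNR). Dcn (5624 to 8381) and Igf2 (4533 to 7328) made up most of these sums. In KNR against WNR the meningeal list had 4 genes higher and 1 lower, where 8.02% of all probes were called. It had 1 gene lower in KTR against WTR (2% of all probes) and 2 higher in WTR against WNR (Mgp and Igf2, 6.25% of all probes). In KTR against KNR 2 were lower (Col3a1 and Ogn), where 15.9% of all probes were called. Of the meningeal genes, 2 stayed below 200 on every array. Of 6 endothelial genes, KTR against KNR and KTR against WTR each called 1 higher and 1 lower (15.9% and 2% of all probes). KNR against WNR and WTR against WNR each called 1 endothelial gene lower (8.02% and 6.25% of all probes). The endothelial sum lay between 3800 and 4187 in KTR and between 4253 and 4456 in KNR. The part of these tissues in the member differences was not tested. The 6 thalamic and habenular markers summed to between 6311 and 9496 over the 8 arrays, and the 4 neocortical markers to between 9861 and 10879. Of the thalamic and habenular genes 1 was called lower in KTR than KNR (15.9% of all probes). The 10 hippocampal neuron markers with values each exceeded 200 on at least 1 array. Without Snap25, which read about the same top value on 7 of the 8 arrays, their sums were 70336 to 70580 (KTR), 63127 to 63237 (KNR), 66725 to 69835 (WTR) and 69925 to 71388 (WNR). Syt1 was the largest part of each sum. It read 41520 and 40547.5 on the KTR arrays, 31742 and 32032 on KNR, 36171 and 38184 on WTR and 42697 and 43008 on WNR. The low KNR sums rest on Syt1. Nrgn, the next largest, read 13226 on both KNR arrays and 10262 and 10110 on WNR. KTR against KNR called Syt1 higher and Prox1 and Neurod6 lower (15.9% of all probes). KNR against WNR called Calb1 and Syt1 lower (8.02% of all probes). Prox1 was also called lower in KTR against WTR (2% of all probes) and in WTR against WNR (6.25%). Prox1, a marker of dentate granule cells, read 201 and 159 on the KTR arrays, 405 and 366 on KNR, 352 and 383 on WTR and 571 and 564 on WNR. The part of these markers in the member differences was not tested.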

How the data were processed

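Total RNA was labelled with Cy5 and hybridised to Phalanx Mouse Whole Genome OneArray slides. The deposited intensity values are linear. According to the methods the authors averaged technical replicates, set a floor of 100 and applied quantile normalization. Background correction is not given in the sources used here. The table holds 29922 probes, of which 13539 were empty on every array and 16383 had values. Of these 13072 carried 1 symbol and 3311 none.

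Here every value below 100 was raised to 100 before the log2 was taken. Folds are therefore ratios of geometric means after that floor, and are written "at least" where a group lies at it, while printed levels, means and SDs are the deposited values. The 16204 probes above 100 on at least 2 arrays were tested with limma 3.58.1 in R 4.3.3 (lmFit, eBayes) on all 8 arrays with 4 group means. The methods used SAM on pairs of groups, and SAM, written here after its published description, and a limma fit of each pair were run as alternatives, with others on the floor, the filter, the arrays, the replicate number and the probe of a gene. The interaction is KTR minus KNR minus the same difference in wild-type mice. The scripts were tested on simulated data.

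The members and lists were chosen with earlier results of these data known. Named members were those called in any test, the 3 largest differences without overlap in each comparison with the higher group above 200 on both arrays, and genes with several probes. Named partners were the 3 largest called per list. Cdh5, Cdh6, Cdh9, Pcdhb13, Pcdhb17, Pcdh7, Pcdh8, Pcdh19, Afdn, Ptk2b, Ctcf, the type II cadherins tallied by group and the marker genes were named after their values were seen. Probe positions were not used, since the build of the probes is not stated in the sources used here.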

Additional observations from a re-analysis of the deposited data

Results flagged for a closer look

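The training difference of Cdh17 differed between the genotypes (limma interaction 1.28 on the log2 scale, adjusted p = 0.044). It was 1.24 in knockout mice (KTR minus KNR) and -0.03 in wild-type mice (WTR minus WNR). The Cdh17 call was kept in 5 of 16 alternative settings. It was lost with no filter on dim probes, with the replicate number as a block and without any 1 array. A second probe of Cdh10 was also marked by this test, at -1.63 (adjusted p = 0.032), with -1.10 in knockout mice and 0.53 in wild-type mice. That call was lost with the replicate number as a block (adjusted p = 0.073) and with any 1 of the 8 arrays left out (0.056 to 0.13). The other 2 Cdh10 probes had interactions of 0.24 and 0.78, opposite in sign, and neither passed (adjusted p = 0.60 and 0.085). Both results use the same 8 arrays, and neither was measured in further mice.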

How the results depend on the processing

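Calls of members rested on few arrays, and so did calls over all probes. The latter also fell with the block, in the pairwise fit, without both arrays and with some single arrays left out. The changes are therefore not particular to the members. In KNR against WNR, KTR against WTR, WTR against WNR and KTR against KNR, a floor of 32 called 1100, 259, 812 and 2454 of all probes. Trend and robust in eBayes called 2092, 804, 1688 and 3076. In KNR against WNR, where 2 members were called, 0 were called with the replicate number as a block, in the pairwise fit, by SAM and with KNR replicate 1 and KTR replicate 2 both left out, and between 0 and 1 when 1 array was left out. In KTR against WTR the 1 call became 0 with a floor of 32, with no filter on dim probes, with a filter above 200 on at least 4 of 8 arrays (Pcdhgc5 was then not tested), with the block, with the mean over the probes of a gene, in the pairwise fit, by SAM, without both arrays and without any 1 array, and 2 with trend and robust in eBayes. In WTR against WNR the 1 call became 0 with the filter above 200 (Pcdhb3 was then not tested), the block, the pairwise fit, SAM, without both arrays and without any 1 array. In KTR against KNR the 4 calls became 2 with a floor of 32, 2 with the block, 0 in the pairwise fit, 1 by SAM, 0 without both arrays and between 0 and 3 with 1 array left out. The single interaction call became 0 with no filter, with the block, without both arrays and without any 1 array. The 5 calls of any difference became 1 with the block, 0 without both arrays, 8 with trend and robust in eBayes and between 0 and 2 with 1 array left out. The 8 calls on probes other than the chosen ones became 3 with the block, 0 in the pairwise fit (7 could be fitted) and 0 without both arrays. The cause of these changes was not tested.

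The medians of the kinds of cadherin moved in some settings by more than the SD of that median between duplicate arrays. This SD was 0.076 for classical, 0.022 for clustered and 0.042 for non-clustered members. It is not the spread of the members themselves. With the filter above 200 they were -0.24 (classical, WTR against WNR), 0.0013 (classical, KTR against KNR), -0.080 (clustered, KNR against WNR), 0.28 (clustered, KTR against WTR) and 0.15 (clustered, KTR against KNR). Without KNR replicate 1 and KTR replicate 2 they were 0.22, 0.21 and 0.14 for classical, clustered and non-clustered members in KTR against KNR, 0.20 and -0.044 for clustered and non-clustered members in KTR against WTR, and -0.025 for clustered members in KNR against WNR. The last median was -0.089 with a floor of 32 and -0.025 with the mean over probes, which also gave -0.013 for classical members in KTR against KNR. With 1 array left out the classical median lay between -0.096 and 0.066 in KNR against WNR and between -0.038 and 0.20 in KTR against KNR, so its sign rested on single arrays in both. The clustered median lay between -0.057 and -0.014 in KNR against WNR, 0.13 and 0.28 in KTR against WTR, -0.14 and -0.043 in WTR against WNR, and 0.094 and 0.12 in KTR against KNR. The non-clustered median lay between -0.19 and -0.092, -0.17 and 0.0085, -0.18 and -0.014, and 0.0071 and 0.19 in these 4 comparisons.

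Of 285 values of the 17 named results under the alternatives, 196 kept their direction and side of the threshold, 87 were no longer called, 1 became called and 1 changed sign. That 1 was Cdh10 in KNR against WNR, at 0.10 with the mean over its probes. Named results that were not called in the main fit had no call to lose, and they supply most of the 196. All 87 losses fall on called results. Those kept their call in between 2 of 16 settings (Pcdhgc5, KTR against WTR) and 13 of 17 (Cdh17, KTR against KNR). The deviations of same-numbered arrays from their group means correlated at 0.27 between WNR and WTR and at 0.44 between KNR and KTR. Across genotypes the correlations ran from -0.38 to -0.24. The block gives same-numbered arrays of all groups the same shift, and these signs do not follow that. Whether the arrays share another structure was not tested. Over all probes the block called 5, 63, 0 and 1442 in KNR against WNR, KTR against WTR, WTR against WNR and KTR against KNR. With 2 arrays a group and at least 1 array below the floor of 100 in 9 of 43 members, small differences are beyond the precision of these arrays.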
